A study of Mus musculus with 12 samples.

Results

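The genes described here supply peptides to major histocompatibility complex (MHC) class I molecules or control that supply. They are 8 genes: Nlrc5, a transcriptional regulator; Psmb8, Psmb9 and Psmb10, the inducible catalytic subunits of the proteasome; Tap1 and Tap2, the peptide transporter; Tapbp, the loading factor tapasin; and B2m, the light chain of the class I molecule. They were chosen by symbol. A probe set was taken where the array annotation gave it exactly 1 of these symbols, and the probe set with the highest mean over all arrays stood for a gene with several. This gave 8 of the 19937 genes that could be tested, and 26 of the 21640 probe sets with exactly 1 symbol. Of those 26, 19 belong to Nlrc5, and each of the other 7 genes has 1.

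The cells were bone marrow-derived dendritic cells of mice, cultured for 7 days with 200 ng/ml GM-CSF and selected on CD11c microbeads, at a labelled purity above 95%. Each of 12 samples was hybridised to its own Affymetrix Mouse Gene 1.0 ST array. The 4 groups of 3 arrays were wild-type cells left untreated, wild-type cells given curdlan for 6 h, IL-2 knockout cells left untreated, and IL-2 knockout cells given curdlan for 6 h. Curdlan is a beta-glucan, a ligand of Dectin-1. The strain label is B6.129P2-Il2tm1Hor/J on all 12 arrays, wild-type arrays included, so genotype here follows the genotype label and the sample titles. The labels give neither the animals' age nor whether replicates came from separate animals. The p-values therefore measure the spread between these samples, and the number of arrays limits the precision.

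Class I molecules show peptides from the inside of a cell to CD8 T cells. Proteasomes cut proteins into peptides, the Tap1-Tap2 transporter carries the peptides into the endoplasmic reticulum, and tapasin holds the empty class I molecule at the transporter until a peptide fits. Interferons raise the expression of many of these genes, and the inducible subunits then replace constitutive ones in newly built proteasomes. NLRC5 is the class I counterpart of CIITA, the regulator of class II genes: it has no DNA-binding part of its own and acts through factors such as the RFX complex at class I promoters. Dendritic cells use the pathway to prime CD8 T cells, and they also load peptides from material they have taken up.

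Sequence upstream of the start site was available for 6 of the 8 genes in the RefSeq promoter table (build GRCm38.p6), which covers 250 bases before to 50 bases after each start. Tap1 and Psmb9 lie head to head, so their windows are largely the same DNA: they overlap by 275 bases on opposite strands. In the GRCm38.p6 gene table, Psmb9, Tap1, Psmb8 and Tap2 follow each other on chromosome 17 with 0 protein-coding genes between neighbours, and Tapbp lies 17 protein-coding genes from Psmb9. Nlrc5 and Psmb10 share chromosome 8, with 105 protein-coding genes between them, and B2m is on chromosome 2. The sequences below are shown because curdlan raised Tap1, Psmb9 and Psmb8 but left B2m without a called change. They are the 225 bases between the Psmb9 and Tap1 starts (chr17:34187331-34187555), and the 250 bases before the starts of Psmb8 (chr17:34197945-34198194) and B2m (chr2:122147437-122147686), all on the plus strand, which is the coding strand of Tap1, Psmb8 and B2m. Capitals mark matches, on either strand, to 5 motifs that factors of this pathway or of interferon and NF-kB signalling are known to read.
Tap1 and Psmb9: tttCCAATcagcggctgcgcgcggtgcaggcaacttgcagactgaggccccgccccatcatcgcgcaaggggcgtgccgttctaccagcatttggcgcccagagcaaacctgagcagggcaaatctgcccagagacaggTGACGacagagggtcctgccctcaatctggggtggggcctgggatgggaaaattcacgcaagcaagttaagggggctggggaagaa
Psmb8: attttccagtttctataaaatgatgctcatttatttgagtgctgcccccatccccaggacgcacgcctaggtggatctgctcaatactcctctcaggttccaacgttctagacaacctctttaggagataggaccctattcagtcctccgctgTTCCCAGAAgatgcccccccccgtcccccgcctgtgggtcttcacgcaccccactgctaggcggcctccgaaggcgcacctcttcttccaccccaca
B2m: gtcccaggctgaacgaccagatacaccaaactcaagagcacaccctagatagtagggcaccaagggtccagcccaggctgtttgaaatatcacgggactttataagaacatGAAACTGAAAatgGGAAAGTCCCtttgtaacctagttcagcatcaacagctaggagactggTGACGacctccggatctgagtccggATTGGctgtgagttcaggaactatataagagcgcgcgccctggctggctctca

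The ISRE core (GAAANNGAAA) was found in the window of 1 of the 6 genes, B2m, and in 3.44% of the 32851 promoter windows in the table. The GAS motif (TTCNNNGAA) was found in that of Psmb8 alone among the 6, against 8.3% of all windows. The Y box (CCAAT) was found for Psmb9, Tap1, Tapbp and B2m, 4 of 6, against 37.4% of all windows, and the Psmb9 and Tap1 matches are the same bases. The CRE core (TGACG) was found for Psmb9, Tap1 and B2m, 3 of 6, against 20.8%, with 1 stretch of bases again shared by Psmb9 and Tap1. An NF-kB site was found for B2m, against 8.46%. In B2m the ISRE core starts at position -139 and the NF-kB match at position -126, counted from -1 at the base before the start, and they do not overlap. The Psmb10 window held none of the 5. These matches are letters in a short window and show no binding.

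The arrays were alike in distribution, with medians between 6.59 and 6.64, and 0 pairs were identical. Il2, the disrupted gene, had log2 values of 5.56, 5.37 and 5.53 in untreated wild-type cells and 7.80, 7.22 and 6.74 after curdlan, against 5.63 to 6.04 on the 6 knockout arrays. Among markers, 6 of 6 dendritic cell genes were measured, and the mean log2 level of the list was higher on every treated array than on any untreated one. It reached at most 11.08 in untreated wild-type cells and lay between 11.29 and 11.40 with curdlan, and in knockout cells it lay between 10.70 and 11.02 untreated and between 11.24 and 11.34 with curdlan. The list did not move as a whole: by sign, 3 of the 6 were higher and 3 lower with curdlan in each genotype. Ccr7, Flt3 and Zbtb46 were higher, and Itgax, Cd74 and H2-Ab1 were slightly lower. The widest change was that of Ccr7, with log2 means of 11.96 and 12.94 in wild-type and 11.50 and 12.59 in knockout cells. Macrophage and monocyte markers (4 of 6 measured, 0 below the median gene) lay between 11.40 and 11.67, at least as high as the dendritic cell list. Neutrophil markers (6 of 6 measured, 5 below the median gene) lay between 5.66 and 6.12. T cell (6 of 6), B cell (3 of 4) and NK cell (3 of 3) markers that were measured all had mean levels below the median gene. The lowest value in the table was 2.76, so no marker was listed at 0. The list for plasmacytoid dendritic cells (3 of 3 measured, 2 of them below the median gene) lay between 6.62 and 6.72 in untreated cells and between 6.96 and 7.15 with curdlan. Its widest change was that of Tcf4, with log2 means of 9.15 and 10.02 in wild-type and 9.20 and 10.00 in knockout cells, while Siglech was at 5.87 and 5.96, and at 5.89 and 5.93. Ccr9 was at 4.96 and 5.09 in wild-type and at 4.98 and 5.28 in knockout cells. The part of the marker lists in the results was not tested. In such bulk RNA, a change in the share of cells of a type and a change in RNA per cell cannot be told apart.

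Curdlan raised 7 of the 8 genes in wild-type cells and 7 of the 8 in IL-2 knockout cells, B2m being the exception in both. A gene passed where limma's test, with Benjamini-Hochberg adjustment over all 19937 genes, gave an adjusted p under 0.05. Among all genes, 7.27% passed as higher in wild-type cells and 9.29% in knockout cells. The median log2 change of the 8 genes was 0.69 in wild-type and 0.71 in knockout cells, beside 0.02 and 0.04 over all genes tested. By the probe set used for each gene, the largest change was that of Nlrc5, followed by Tap1 and Psmb9. For these 7 genes the curdlan and untreated arrays of a genotype did not overlap, which held in the upward direction for 17% of all genes in wild-type and 19.4% in knockout cells. Of the marker lists, dendritic cell genes passed as higher for 2 of 6 in wild-type and 3 of 6 in knockout cells, plasmacytoid dendritic cell genes for 1 of 3 and 2 of 3, and macrophage and monocyte genes for 1 of 4 in each. The macrophage and monocyte list moved both ways by sign in each genotype: 2 were higher (Mertk and Cd14) and 2 lower, with 0 passing as lower. Those lower were Adgre1 (12.23 and 11.92 in wild-type, 12.13 and 11.90 in knockout cells) and Csf1r (12.45 and 12.28, 12.54 and 12.40). Neutrophil genes passed for 0 of 6 in either genotype.

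**Figure D1:**
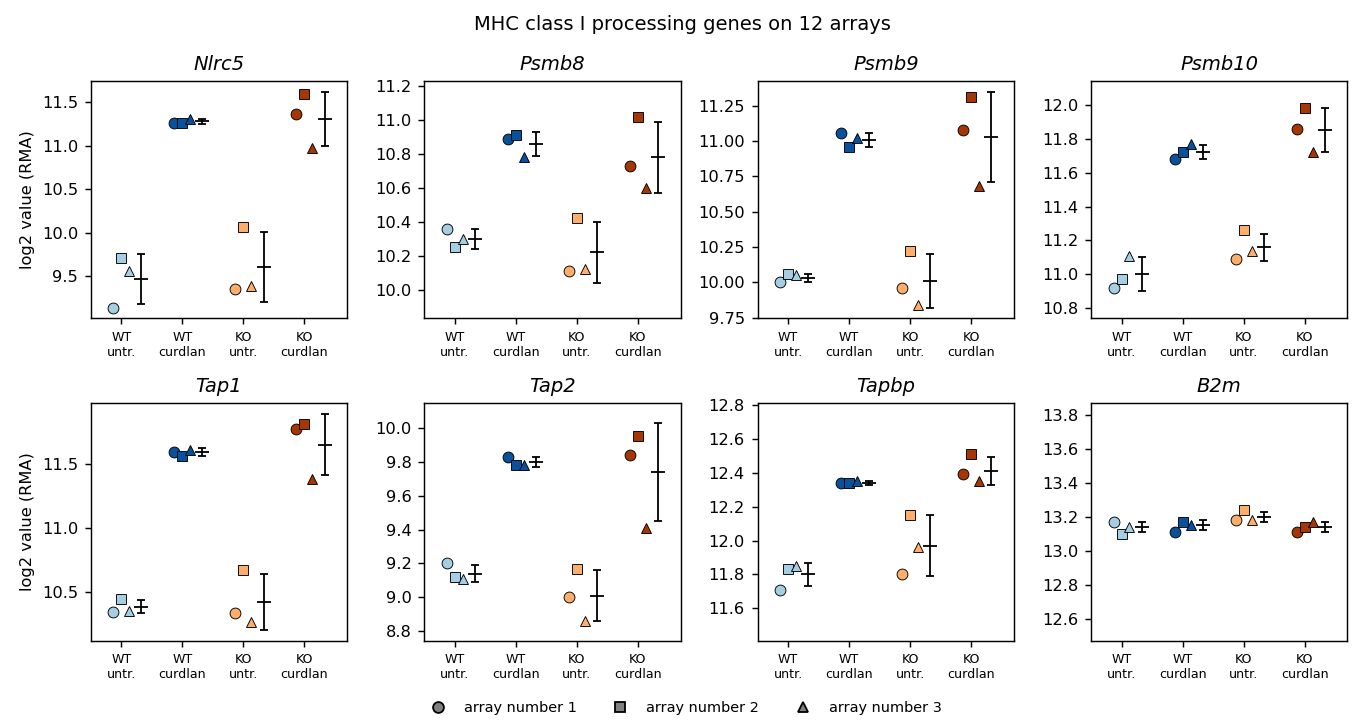
Log2 values (RMA) of the 8 genes on the 12 arrays, with 3 arrays for each group; the bar beside each group is the mean with the SD, the marker shape is the array number, and each panel has its own y axis. In 7 panels all curdlan arrays lie above all untreated arrays, and in the B2m panel the 12 arrays lie between 13.10 and 13.24.

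Nlrc5 had log2 values of 9.14, 9.71 and 9.56 in untreated wild-type cells and 11.26, 11.26 and 11.31 with curdlan. In knockout cells the values were 9.36, 10.07 and 9.39 untreated and 11.37, 11.59 and 10.98 with curdlan. Every treated array was thus above every untreated array, by more than the spread of any group, and the genotypes overlapped within each treatment. Ordered by mean, the groups ran from untreated wild-type cells (9.47 ± 0.29, SD, n = 3) through untreated knockout cells (9.61 ± 0.40) and treated wild-type cells (11.28 ± 0.03) to treated knockout cells (11.31 ± 0.31). The neighbours of the same treatment did not differ beyond their spread. The rise was 3.51-fold in wild-type cells (log2 change 1.81, SE 0.20, limma adjusted p = 0.000155) and 3.25-fold in knockout cells (1.70, SE 0.20, adjusted p = 0.000291). By size of rise Nlrc5 stood at place 62 among the 19937 genes in wild-type cells and at place 57 in knockout cells.

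Because Nlrc5 is covered by 19 probe sets, its response could be read from each of them on its own. In this fit over probe sets, chosen after the data were seen, 19 of 19 passed as higher in wild-type cells and 19 of 19 in knockout cells, against 7.17% and 9.02% of the 21640 probe sets. They share the transcript and the samples, so they are repeated readings of 1 gene and not replicates. The log2 change ran from 0.97 to 2.02 in wild-type cells (median 1.69) and from 0.98 to 1.74 in knockout cells (median 1.62). In folds this is 1.96 to 4.05 and 1.97 to 3.33. The probe set used for the gene, at 1.81 and 1.70, lies in the upper part of both ranges. The lowest readings, 0.97 and 0.98, lie below the Tap1 changes of 1.21 and 1.23, so the order of Nlrc5 and Tap1 depends on the probe set. The place of each probe set along the gene was not used here.

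**Figure D2:**
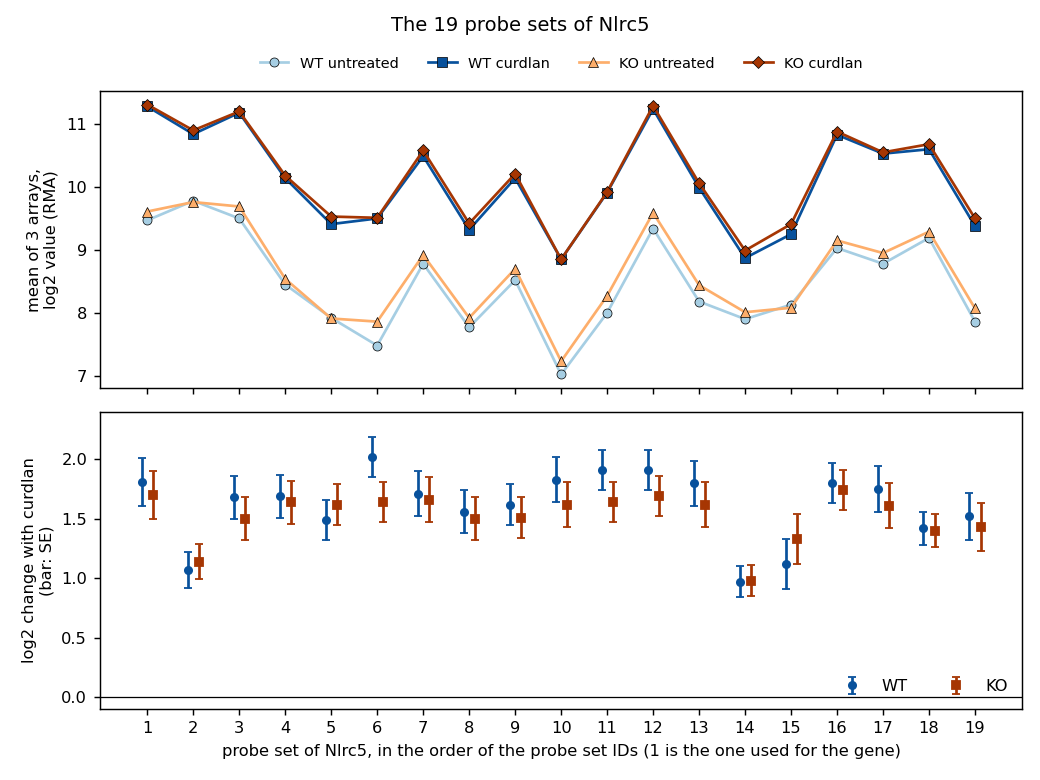
The 19 probe sets of Nlrc5 in the order of their IDs; the upper panel gives the mean log2 value of the 3 arrays in each of the 4 groups, and the lower panel the log2 change with curdlan (curdlan minus untreated) in wild-type and knockout cells with its SE. Levels differ between probe sets while the changes of all 19 lie above 0 in both genotypes, between 0.97 and 2.02.

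The 3 inducible proteasome subunits rose together. Psmb9, the subunit known as LMP2, had log2 values of 10.00, 10.06 and 10.05 in untreated wild-type cells and 11.06, 10.96 and 11.02 with curdlan. In knockout cells it had 9.96, 10.22 and 9.84 untreated and 11.08, 11.31 and 10.68 with curdlan. The lowest treated array was above the highest untreated array in both genotypes. This was a 1.97-fold rise in wild-type cells (log2 change 0.98, SE 0.13, limma adjusted p = 0.000613) and a 2.03-fold rise in knockout cells (1.02, SE 0.13, adjusted p = 0.00057).

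Psmb10, known as MECL-1, gave 10.92, 10.97 and 11.11 on the log2 scale in untreated wild-type cells and 11.68, 11.72 and 11.77 with curdlan. The knockout arrays gave 11.09, 11.26 and 11.14 untreated and 11.86, 11.98 and 11.72 with curdlan. Treated and untreated arrays were clearly apart, and the rise was 1.65-fold in wild-type cells (adjusted p = 9.57e-05) and 1.61-fold in knockout cells (adjusted p = 0.000172, both by limma). Psmb8, known as LMP7, read 10.36, 10.25 and 10.30 in untreated wild-type cells and 10.89, 10.91 and 10.78 with curdlan. In knockout cells Psmb8 read 10.11, 10.42 and 10.12 untreated and 10.73, 11.02 and 10.60 with curdlan. The highest untreated and the lowest treated knockout array were closer for Psmb8 than for Psmb9, but they did not cross. Psmb8 rose 1.47-fold in wild-type cells (log2 change 0.56, SE 0.11, adjusted p = 0.00444) and 1.48-fold in knockout cells (0.56, SE 0.11, adjusted p = 0.00466). Without the pair of wild-type arrays numbered 2 the adjusted p of Psmb8 was 0.0577 (log2 change 0.50), and without the knockout pair numbered 1 it was 0.0565 (0.53). Over 26 alternatives its adjusted p ran from 0.000267 to 0.0577 in wild-type and from 0.000339 to 0.0565 in knockout cells.

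The constitutive subunits that these proteins replace, Psmb5, Psmb6 and Psmb7, gave a different picture: 0 of 3 passed in either genotype. Among all genes, 19.6% passed in wild-type and 22.5% in knockout cells, counting both directions. Psmb5, the counterpart of Psmb8, changed by -0.02 in wild-type and 0.00 in knockout cells on the log2 scale (adjusted p = 0.859 and 0.962). Psmb7, the counterpart of Psmb10, changed by 0.06 and -0.02 (adjusted p = 0.446 and 0.821). Psmb6, the counterpart of Psmb9, was at 0.19 and 0.16 (adjusted p = 0.0531 and 0.0803), close to the threshold. Psmb6 passed in 6 of 26 alternatives in wild-type cells, with the replicate number as a block among them (adjusted p = 0.0404, range over alternatives 0.0215 to 0.269), and in 2 of 26 in knockout cells. The inducible subunit moved further than its counterpart in each pair. The excess on the log2 scale was 0.57 in wild-type and 0.57 in knockout cells for Psmb8 over Psmb5, 0.79 and 0.86 for Psmb9 over Psmb6, and 0.67 and 0.70 for Psmb10 over Psmb7. An exact permutation test of each excess, two-sided and chosen after the data were seen, with the arrays reassigned within genotype, gave p = 0.005 for each of the 3 pairs and 0.005 after adjustment over the 3. That is the smallest p that the 400 assignments can give, and it treats arrays of a genotype as exchangeable, although same-numbered arrays deviated together. With swaps only within same-numbered pairs the exact permutation p was 0.0312 for each, before and after adjustment, the smallest that the 64 swaps can give.

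**Figure D3:**
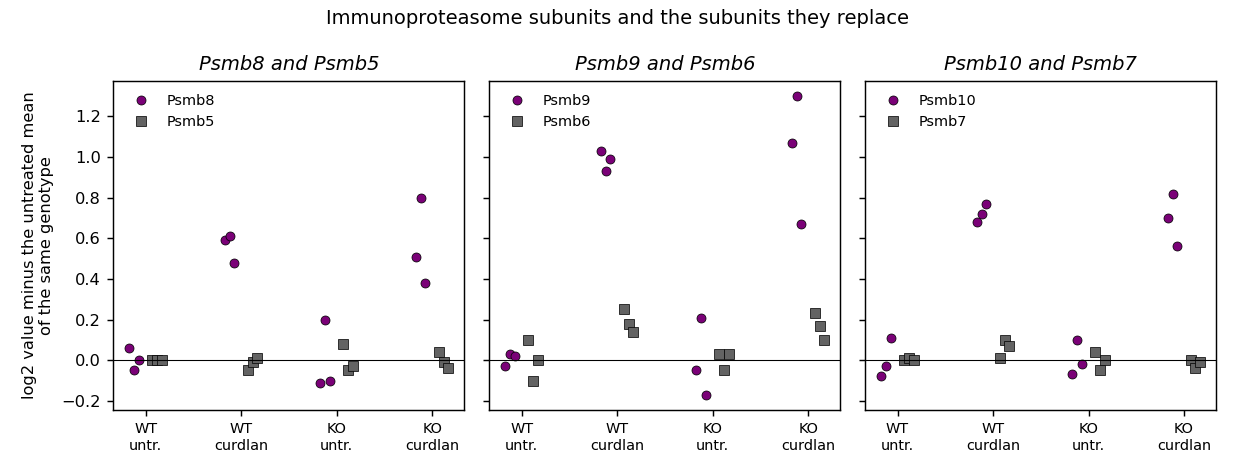
Log2 value minus the untreated mean of the same genotype, by group, for each inducible subunit (circles) and the constitutive subunit it replaces (squares); each point is 1 array. Circles of the treated groups lie clear of the squares in all 3 panels, and the squares stay near 0 except for Psmb6, whose mean change was 0.19 in wild-type and 0.16 in knockout cells.

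Of the 7 listed proteasome activator and assembly genes, 3 rose and 3 fell in wild-type cells, and 3 rose and 3 fell in knockout cells. Among all genes, 7.27% passed as higher and 12.3% as lower in wild-type cells, and 9.29% and 13.2% in knockout cells. Psme1 and Psme2 encode the PA28 alpha and beta subunits, which open the proteasome and favour peptides of a length for class I. Psme2 read 11.87, 11.85 and 11.93 in untreated and 12.40, 12.44 and 12.36 in treated wild-type cells. Its rise was 1.44-fold (limma adjusted p = 0.00048), and in knockout cells 1.33-fold (adjusted p = 0.00251). Psme1 rose 1.38-fold (adjusted p = 0.00131) and 1.37-fold (adjusted p = 0.00191). The genes that fell included Psmg1 and Psmg2, which encode a chaperone pair for proteasome assembly. Psmg2 changed by -0.65 in wild-type and -0.63 in knockout cells on the log2 scale (adjusted p = 0.00502 and 0.00634), and Psmg1 by -0.48 and -0.64 (adjusted p = 0.00943 and 0.00249). Without the wild-type pair numbered 1 the adjusted p in wild-type cells was 0.0656 for Psmg2 and 0.121 for Psmg1. Without the knockout pair numbered 1 it was 0.0573 for Psmg2 in knockout cells, and without the wild-type pair numbered 3 it was 0.0503 for Psmg1 in wild-type cells. Over the alternatives the adjusted p ran from 0.00122 to 0.0656 for Psmg2 and from 0.00299 to 0.121 for Psmg1 in wild-type cells, and from 0.00161 to 0.0573 for Psmg2 in knockout cells. The third riser was Psme4 (log2 change 0.26 and 0.20) and the third gene to fall was Psme3 (-0.23 and -0.28), with calls lost in 2 and 9 of 26 alternatives for Psme4 and in 6 and 2 for Psme3. The Psme1 and Psme2 calls held in each of 26 alternatives in both genotypes.

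The peptide transporter rose as a whole, its first subunit more than its second. Tap1 had log2 values of 10.34, 10.44 and 10.35 in untreated wild-type cells and 11.59, 11.56 and 11.61 with curdlan. In knockout cells it had 10.33, 10.67 and 10.26 untreated and 11.77, 11.81 and 11.38 with curdlan. The gap between treated and untreated arrays was wider than the range within any group. Tap1 rose 2.31-fold in wild-type cells (log2 change 1.21, SE 0.12, limma adjusted p = 5.86e-05) and 2.35-fold in knockout cells (1.23, SE 0.12, adjusted p = 6.17e-05).

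Tap2 read 9.20, 9.12 and 9.11 in untreated wild-type cells and 9.83, 9.78 and 9.78 with curdlan. Its knockout arrays read 9.0, 9.17 and 8.86 untreated and 9.84, 9.95 and 9.41 with curdlan. The treated knockout array numbered 3 was the lowest of the treated arrays and still above the highest untreated one. Tap2 rose 1.57-fold (log2 change 0.65, SE 0.12, adjusted p = 0.00321) and 1.66-fold (0.73, SE 0.12, adjusted p = 0.00206, both by limma). Tapbp, which bridges the transporter and the class I molecule, read 11.71, 11.83 and 11.85 in untreated wild-type cells and 12.34, 12.34 and 12.35 with curdlan. Knockout cells gave 11.80, 12.15 and 11.96 for Tapbp untreated and 12.39, 12.51 and 12.35 with curdlan. The untreated knockout array numbered 2 came closest to the treated ones, and the groups did not overlap. Tapbp rose 1.46-fold in wild-type cells (log2 change 0.55, SE 0.08, adjusted p = 0.00101) and 1.37-fold in knockout cells (0.45, SE 0.08, adjusted p = 0.00359).

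Among the trimming and loading partners, 7 of 8 listed genes were measured, and 2 rose in wild-type and 3 in knockout cells, with 0 lower in either; in 8 of 26 alternatives 1 or 2 were lower in knockout cells. Among all genes, 7.27% in wild-type and 9.29% in knockout cells passed as higher, and 12.3% and 13.2% as lower. The median log2 change of the list was 0.03 and 0.07, beside 0.02 and 0.04 over all genes. Tapbpl, which encodes the tapasin relative TAPBPR, a peptide editor, stood out in size. It had log2 values of 8.60, 8.71 and 8.53 in untreated wild-type cells and 9.60, 9.60 and 9.65 with curdlan, and 8.45, 8.57 and 8.51 against 9.54, 9.73 and 9.38 in knockout cells. The group means were about a log2 unit apart, and the rise was 2.01-fold (limma adjusted p = 1.36e-05) and 2.06-fold (adjusted p = 1.7e-05). Sppl2a, a membrane protease, rose by 0.26 on the log2 scale in each genotype (limma adjusted p = 0.00698 and 0.0075). Its place in this list is by choice, and a role for it in class I trimming or loading was not tested here. Erap1, the peptidase that trims peptides in the endoplasmic reticulum, rose by 0.19 in knockout cells (adjusted p = 0.0334), a call lost in 11 of 26 alternatives (adjusted p up to 0.167), and was at 0.13 in wild-type cells (adjusted p = 0.152). The Sppl2a call was lost without the wild-type pairs numbered 1 (adjusted p = 0.0509) and 3 (0.0724) and without the knockout pair numbered 1 (0.0999), and its lowest adjusted p over the alternatives was 0.0019 and 0.00206. The chaperone genes Calr, Canx and Pdia3 did not pass in either genotype, with log2 changes between -0.20 and -0.06. Pdia3 was nearest, at -0.20 in knockout cells (limma adjusted p = 0.0584), and passed as lower there in 8 of 26 alternatives, the replicate number as a block among them (adjusted p = 0.0212, range 0.0201 to 0.207). Canx passed as lower in knockout cells in 1 of 26 (0.0403).

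B2m had the smallest change of the 8. Its log2 values were 13.17, 13.10 and 13.14 in untreated wild-type cells and 13.11, 13.17 and 13.15 with curdlan. In knockout cells they were 13.18, 13.24 and 13.18 untreated and 13.11, 13.14 and 13.17 with curdlan. The wild-type groups overlapped. The knockout groups did not, the treated arrays being lower by a margin of 0.01, as held in that direction for 20.8% of all genes. The log2 change was 0.01 in wild-type cells (95% confidence interval -0.09 to 0.11, limma adjusted p = 0.917) and -0.06 in knockout cells (-0.16 to 0.05, adjusted p = 0.388). Both intervals lie below the change of every other gene of the 8. The mean level of B2m stood at percentile 99.8 of all gene means, where the 99th percentile was 12.59 and the highest gene mean 13.88. The highest value of any probe set on any array was 14.04, and the deposited values carry no saturation call. Whether so high a level limited the change that could be read for B2m was not tested.

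**Figure D4:**
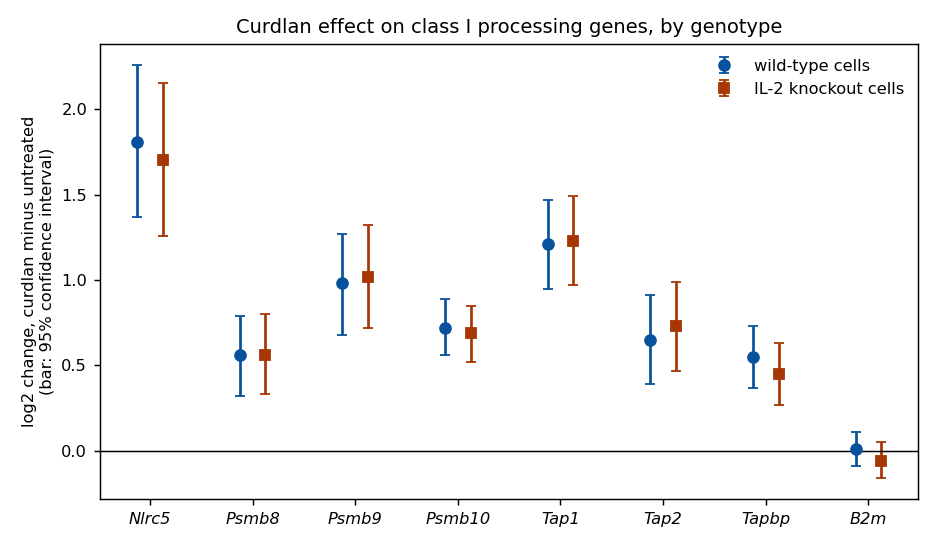
Log2 change with curdlan (curdlan minus untreated) of the 8 genes in wild-type cells (circles) and IL-2 knockout cells (squares), from the fit to all 12 arrays; bars are 95% confidence intervals. The intervals of 7 genes lie above 0 in both genotypes, those of B2m include 0, and the intervals of the genotypes overlap for each gene.

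The class I heavy chains, the partners of B2m, were measured in part. Of 19 listed heavy chain and class I-like genes, 10 had a probe set of exactly 1 symbol. The classical genes H2-K1 and H2-D1 were among the 9 without, and they were not analysed here. Of the 10, 5 rose and 1 fell in wild-type cells, and 4 rose and 1 fell in knockout cells. Among all genes, 7.27% and 9.29% passed as higher, and 12.3% and 13.2% as lower. The median log2 change was 0.43 and 0.39, beside 0.02 and 0.04 over all genes. The H2-Q and H2-T genes are close copies of each other, so a probe set can pick up RNA of a relative, and their single values are uncertain. H2-T24 rose 2.91-fold in wild-type and 2.56-fold in knockout cells (limma adjusted p = 1.74e-06 and 7.86e-06). H2-Q4 rose 2.12-fold and 2.24-fold (adjusted p = 0.00395 and 0.00313), and H2-T10 rose 1.55-fold and 1.61-fold (adjusted p = 0.00115 and 0.000813). These 3 genes passed in each of 26 alternatives in both genotypes. The other risers were H2-M2 (log2 change 0.53) and Cd1d1 (0.53), a lipid-presenting molecule, in wild-type cells, and H2-M3 (0.44), which presents formylated bacterial peptides, in knockout cells. Their calls were lost in 7, 4 and 10 of 26 alternatives. In the other genotype H2-M2 was at 0.40, Cd1d1 at 0.37 and H2-M3 at 0.32, and they passed in 6, 9 and 5 of 26. With the replicate number as a block the adjusted p was 0.0145 for H2-M2 and 0.0278 for Cd1d1 in knockout cells, and 0.0125 for H2-M3 and 0.0289 for H2-Bl in wild-type cells. Mr1, which presents metabolites of microbial vitamin synthesis, changed by -0.48 and -0.39 on the log2 scale (adjusted p = 0.00586 and 0.0181); the wild-type call was lost without the pair numbered 1 (adjusted p = 0.0749, range over alternatives 0.00148 to 0.0749) and the knockout call in 5 of 26 alternatives (0.00451 to 0.106). The count of risers in wild-type cells was 3 without the untreated array numbered 1, without the treated array numbered 2, and without either of the pairs numbered 1 and 2. In knockout cells it was 7 without the untreated array numbered 2.

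Regulators of class I genes other than Nlrc5 were also listed, and 13 of them were measured. In wild-type cells 3 rose and 0 fell, and in knockout cells 4 rose and 0 fell. Among all genes, 7.27% and 9.29% passed as higher, and 12.3% and 13.2% as lower. The median log2 change of the list was 0.03 and 0.02, beside 0.02 and 0.04 over all genes, so the list did not move as a whole. Alternatives called some lower: 2 in 2 of 26 in wild-type cells, Nfyc (-0.16) and Atf1 (-0.15), and 1 or 2 in 8 of 26 in knockout cells, Rfxap (-0.18, adjusted p down to 0.0208) and Nfyc (-0.17, down to 0.0291). The risers in both were Stat2, Irf1 and Irf9. Stat2 and Irf9 encode parts of the factor that carries the type I interferon signal, and IRF1 binds promoters of class I genes. Irf1 read 9.50, 9.47 and 9.67 in untreated and 10.80, 10.62 and 10.78 in treated wild-type cells, a 2.28-fold rise (limma adjusted p = 0.000161). In knockout cells Irf1 read 9.34, 9.88 and 9.67 untreated and 10.89, 11.14 and 10.72 with curdlan, a 2.44-fold rise (adjusted p = 0.000114). The treated and untreated arrays did not overlap in either genotype. With the mean of both its probe sets in place of the brighter, the log2 change of Irf1 was 0.72 and 0.84 in place of 1.19 and 1.29, and both calls held. Stat2 rose 2.58-fold and 2.56-fold (adjusted p = 4.62e-05 and 6.17e-05), and Irf9 rose 1.46-fold and 1.40-fold (adjusted p = 0.000411 and 0.000979). Rfx5, the large subunit of the RFX complex, rose by 0.49 on the log2 scale in knockout cells (adjusted p = 0.0178), a call lost in 5 of 26 alternatives (adjusted p up to 0.146, without the pair numbered 1), and was at 0.36 in wild-type cells (adjusted p = 0.0661), where 5 of 26 alternatives put it past the threshold. Ciita, the class II counterpart of Nlrc5, was at 0.23 in wild-type and 0.20 in knockout cells (adjusted p = 0.593 and 0.606).

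The design also asks whether these genes depend on IL-2. In untreated cells 0 of the 8 passed between knockout and wild type, where 1.42% of all genes did. The log2 differences, knockout minus wild type, ran from -0.14 for Tap2 to 0.17 for Psmb10 and Tapbp. Psmb10 came closest: its 95% interval was 0.00 to 0.33, with a limma p of 0.0509 before and 0.474 after adjustment. For Nlrc5 the difference was 0.14 (-0.30 to 0.59), so the data bound it only loosely. For Tap1 it was 0.05 (-0.21 to 0.30). B2m was at 0.06 (-0.04 to 0.16), and its knockout arrays lay above its wild-type arrays without overlap, as held for 7.55% of all genes. Among curdlan-treated cells 0 of the 8 passed, where 0.622% of all genes did, and the log2 differences ran from -0.08 for Psmb8 to 0.13 for Psmb10. Nlrc5 differed there by 0.03 (-0.42 to 0.48), Tap1 by 0.07 (-0.19 to 0.32) and B2m by 0.00 (-0.11 to 0.10). The lists of regulators (0 of 13), activators and assembly factors (0 of 7), trimming and loading partners (0 of 7) and heavy chains (0 of 10) had no calls between genotypes in either treatment.

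Between untreated genotypes the heavy chain H2-T24 lay just outside the threshold. It read 9.21, 9.38 and 9.18 in knockout and 8.95, 8.75 and 8.81 in wild-type cells, a difference of 0.42 on the log2 scale (limma adjusted p = 0.0533). The arrays did not overlap, and it passed in 9 of 26 alternatives (adjusted p 0.0304 to 0.347). Among treated cells the H2-T24 difference was 0.23 (adjusted p = 0.346). Of the 10 heavy chain and class I-like genes, 9 were higher in knockout cells by sign in each treatment, with 0 calls. The median difference was 0.12 untreated and 0.14 treated, beside 0.01 and 0.02 over all genes. These genes share the arrays, and a probe set can pick up RNA of a relative, so the signs are not separate readings. The share of all genes higher by sign was not counted. After H2-T24, the widest difference in untreated cells was that of H2-M2 (0.33, limma adjusted p = 0.451). In treated cells the widest were those of Cd1d1 (-0.35, adjusted p = 0.295) and H2-Q4 (0.26, adjusted p = 0.714).

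Among the regulators the widest differences were those of Ciita, at -0.60 untreated and -0.64 treated (limma adjusted p = 0.453 and 0.38). Rfx5 was at -0.29 untreated (adjusted p = 0.419), passing without the wild-type pair numbered 1 (0.0452), and Irf1 at 0.19 treated (adjusted p = 0.67). Of the activators and assembly factors, Psme4 and Psme1 were at 0.09 and -0.07 untreated, and Psme2 and Psmg1 at -0.12 and -0.11 treated. Of the trimming and loading partners, Tapbpl and Pdia3 were at -0.10 and 0.10 untreated, and Erap1 and the chaperone gene Hspa5 at 0.13 and 0.07 treated. Psmb5, Psmb6 and Psmb7 differed by at most 0.06 in either treatment.

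The difference between the curdlan responses of the genotypes was tested directly. None of the 8 passed, as none of the 19937 genes did by limma (552 genes had an unadjusted p under 0.05, and 0 of the 8 were among them). The response of knockout cells minus that of wild-type cells was -0.11 on the log2 scale for Nlrc5 (95% interval -0.74 to 0.52) and 0.02 for Tap1 (-0.34 to 0.39). It was 0.01 for Psmb8 (-0.33 to 0.34), 0.04 for Psmb9 (-0.38 to 0.46) and -0.04 for Psmb10 (-0.27 to 0.20). For Tap2 it was 0.08 (-0.29 to 0.44), for Tapbp -0.10 (-0.35 to 0.16), and for B2m -0.06 (-0.21 to 0.08). These intervals set the limit on a difference: for Nlrc5 the data allow a response in knockout cells that is weaker by up to 0.74 or stronger by up to 0.52. A p above the threshold does not show that the responses were equal. Across the 19 probe sets of Nlrc5 the difference of responses ran from -0.37 to 0.21, with 0 of 19 past the threshold, beside 0 of the 21640 probe sets. In the lists of regulators, activators, loading partners and heavy chains the widest differences of response were 0.17 for Atf1, 0.13 for Rfx5, -0.16 for Psmg1, -0.11 for Psme2, 0.06 for Erap1, -0.05 for Pdia3, -0.19 for H2-T24 and -0.16 for Cd1d1. Psmb7 and Psmb6 were at -0.07 and -0.03, and the limma adjusted p was 1 for each of these.

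The knockout arrays varied together for this set of genes. The untreated knockout array numbered 2 was the highest of its group for 8 of 8 genes, and the treated knockout array numbered 2 for 7 of 8. The treated knockout array numbered 3 was the lowest for 7 of 8. The median deviation of the 8 genes from the group mean was 0.19 on the log2 scale on each of the arrays numbered 2, -0.12 on the untreated array numbered 3 and -0.23 on the treated array numbered 3. Over all genes the median deviation of an array lay between -0.02 and 0.01. On the knockout arrays numbered 2, 51.3% (untreated) and 53.2% (treated) of all genes lay above the group mean. On the treated knockout array numbered 3 the share was 42.6%. The share of all genes that were highest or lowest of their group on these arrays was not counted. Among the 19 probe sets of Nlrc5, both arrays numbered 2 were the highest of their group in 19 of 19 and the treated array numbered 3 was the lowest in 19 of 19. The wild-type arrays showed smaller median deviations, between -0.04 and 0.01. Nlrc5 itself was an exception to this. Its deviation was -0.33 on the untreated wild-type array numbered 1 and -0.33 on the treated knockout array numbered 3. That wild-type array was the lowest of its group in 18 of 19 probe sets. The SD of Nlrc5 was 0.29 in untreated wild-type cells, against 0.40 and 0.31 in untreated and treated knockout cells. The median SD of the 8 genes was 0.06 in untreated and 0.03 in treated wild-type cells, against 0.18 and 0.23 in knockout cells, while over all genes it lay between 0.07 and 0.09 in each of the 4 groups. With 3 arrays a group, the difference in spread was not tested. Ciita was lowest on the knockout arrays numbered 3 in both treatments: 9.30 untreated, against 9.75 and 10.17, and 9.30 treated, against 10.12 and 10.38.

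**Figure D5:**
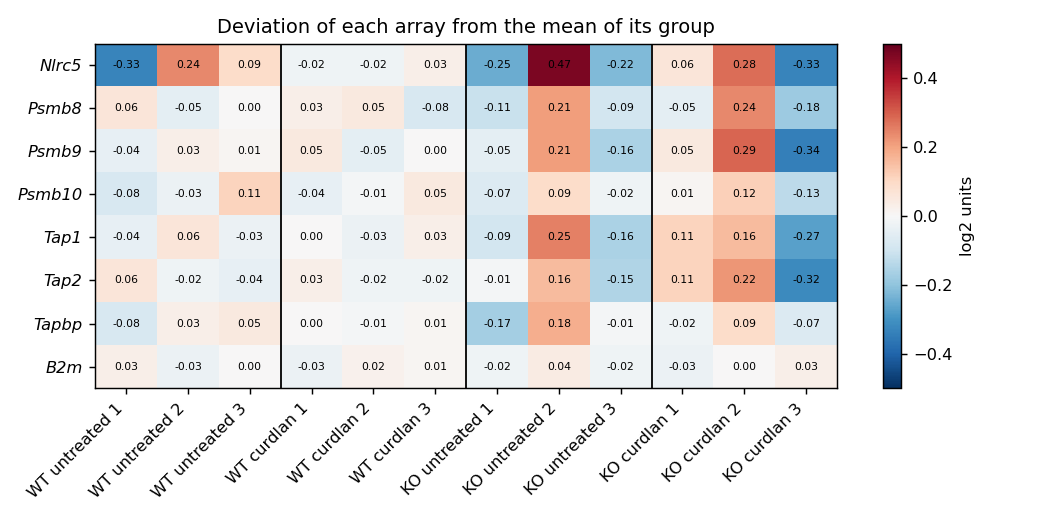
Deviation of each of the 12 arrays from the mean of its group, in log2 units, for the 8 genes; red is above and blue below the group mean, and the values are printed in the cells. The knockout arrays numbered 2 are above the mean for 8 of 8 genes in both treatments, and the treated knockout array numbered 3 is below it for 7 of 8, while the treated wild-type arrays lie within 0.08 of their means. Of all genes, 51.3% (untreated) and 53.2% (treated) lie above the mean on the knockout arrays numbered 2. On the treated knockout array numbered 3 the share is 42.6%.

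The likeness of profiles was measured as the root mean square difference over the 12 arrays after each gene was centred on its own mean, in log2 units. Among the 8 genes, the nearest pair was Psmb8 and Tap2 at 0.102, followed by Psmb10 and Tapbp at 0.12 and Tap1 and Psmb9 at 0.127. Nlrc5, with its larger change, was nearest to Tap1 at 0.303 and farthest from B2m at 0.922. Outside the 8, the 5 genes nearest to Nlrc5 were Trim30d (0.154), Xaf1 (0.156), Zbp1 (0.16), Irgm1 (0.162) and Ifit1bl2 (0.171). Their log2 changes with curdlan lay between 1.66 and 2.02 in wild-type cells and between 1.53 and 1.80 in knockout cells. The 5 nearest to Tap1 were 1600014C10Rik (0.085), Trex1 (0.087), Ifi35 (0.094), Daxx (0.095) and Uba7 (0.095). The 12 arrays share the treatment contrast, so genes with a curdlan change of like size come out near each other by this measure.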

How the data were processed

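The deposited table holds log2 values, 1 for each probe set and array, which the authors made with RMA, per the submitters' processing notes. RMA corrects background, equalises array distributions and summarises probes. Its version and the annotation build are not stated in those notes. Of 34760 probe sets, 21640 carried exactly 1 gene symbol, 1321 several and 11799 were not listed in the annotation table. For the 954 genes with several probe sets, the one with the highest mean was used. Group means of the 4 groups were fitted over all 12 arrays in limma 3.58.1 (R 4.3.3) with 8 residual degrees of freedom. Tests were two-sided, dim genes were kept, values were not normalised again, and the procedure was tested on simulated data. Positive differences are curdlan minus untreated or knockout minus wild type. The curdlan contrast of a genotype and its genotype contrasts share arrays.

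The members, lists and motifs were chosen with earlier results of these data known. The named genes are the 8 members, up to 4 genes of each list with the largest change past the threshold (the 2 largest where none passed), Psmb5, Psmb6, Psmb7, Irf1 and Ciita, and the 5 profiles nearest to Nlrc5 and to Tap1. For the curdlan contrasts, Calr, Canx, Pdia3, Mr1, Cd1d1, H2-Bl, H2-Ob, Psme3, Psme4, Nfyc, Atf1, Rfxap and the markers Tcf4 and Siglech were added after their values were seen. So were H2-Aa, H2-Eb1 and the dendritic cell markers Ccr7, Flt3, Zbtb46, Itgax, Cd74 and H2-Ab1. The markers Ccr9, Adgre1, Csf1r, Mertk and Cd14 were likewise added after their values were seen. The swaps within pairs were also chosen after seeing the data.

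Replicate numbers were checked as a pairing of untreated and treated arrays. Deviations from the group means correlated between same-numbered arrays at 0.37 to 0.45 in wild-type and 0.49 to 0.60 in knockout cells, and between differently numbered ones at -0.48 to 0.06. Between genotypes, same-numbered arrays correlated at 0.11 to 0.25 untreated and at -0.13 to 0.33 treated. A pair left out is the untreated and the treated array of a number in 1 genotype.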

Additional observations from a re-analysis of the deposited data

How the results depend on the processing

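Each curdlan contrast was refitted under 26 alternatives: each array left out, each same-numbered pair left out, only the compared arrays, a replicate block, a random block, a trend with robust moderation, no dim genes, the mean of a gene's probe sets, quantile normalisation again, and median centring. Between 6 and 7 members passed in wild-type and in knockout cells, and 0 in the other 3 contrasts. The 1047 refitted member values cover every contrast and also hold readings of single Nlrc5 probe sets. Most of them had no call to lose, since only the 7 members called in the curdlan contrasts could lose one. There, 2 values lost their call (Psmb8, given above), and 0 reversed. In the replicate block, the curdlan contrasts and the difference of responses used the same-numbered pairs of a genotype. Between genotypes it paired wild-type and knockout arrays of a number, which the labels do not give as a pairing. With the replicate block, 7 members passed in wild-type cells, 7 in knockout cells and 0 in each other contrast, so these pairings changed no member's call.

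Counts over all genes moved more: 1841 to 5298 in wild-type cells (3899 as reported; 1841, 1959 and 2202 without the pairs numbered 1, 2 and 3), 1079 to 6699 in knockout cells (4481 as reported; 1079 without the pair numbered 1, 6699 with the random block), 9 to 608 and 15 to 299 between genotypes, untreated and treated (283 and 124 as reported), and 0 to 3 for the difference of responses. Under median centring the share of calls that were higher went from 41.4% to 31.2% in knockout cells and from 16.3% to 35.3% between untreated genotypes. In the 250 bases before the starts alone, the same number of members held each motif, against 2.98% of windows for the ISRE core, 7.02% for GAS, 33.8% for the Y box, 17.8% for the CRE core and 7.25% for the NF-kB site.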

Other observations

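The subunits of the proteasome core that are shared by both forms were measured for 11 of 11 listed genes. In wild-type cells 2 rose and 1 fell, and in knockout cells 2 rose and 0 fell, where 7.27% and 9.29% of all genes rose and 12.3% and 13.2% fell. The median log2 change of the list was 0.07 and -0.01, beside 0.02 and 0.04 over all genes. Psma5 was at 0.38 and 0.34 (limma adjusted p = 0.00901 and 0.0179) and Psma4 at 0.21 and 0.23 (adjusted p = 0.0231 and 0.0151). Each of these calls was lost in between 2 and 6 of 26 alternatives. The Psma1 fall of 0.18 in wild-type cells (adjusted p = 0.0487) was lost in 20 of 26. In knockout cells Psma1 was at -0.17, and 7 of 26 alternatives called it lower (adjusted p 0.023 to 0.0342). Between genotypes the widest differences were 0.07 for Psma3 and for Psmb1 in untreated cells, and -0.11 for Psma6 and -0.09 for Psma7 in treated cells (0 of 11 passed in each), and the widest differences of response were -0.12 for Psma3 and for Psma6.

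Of 10 listed class II genes 8 were measured, Ciita, their regulator, being 1 of the 8. In each genotype 0 rose with curdlan and 1 fell, beside 12.3% and 13.2% of all genes. That was H2-DMa, by 0.27 in wild-type cells and 0.21 in knockout cells on the log2 scale (limma adjusted p = 0.0073 and 0.0222). The call was lost in 2 of 26 alternatives in wild-type and 8 of 26 in knockout cells. With the replicate number as a block a second gene, H2-Ob, was lower in wild-type cells (-0.29, limma adjusted p = 0.0474). Without the treated knockout array numbered 3, H2-Oa passed as higher in knockout cells (0.62, limma adjusted p = 0.0258). H2-Aa, H2-Ab1, H2-Eb1 and Cd74 had group means between 13.04 and 13.27, at percentiles 99.7 to 99.8 of all gene means. Whether such a level limits the change that an array can show was not tested. Between untreated genotypes H2-Oa, a modulator of class II peptide loading, was lower in knockout cells: 8.24, 8.18 and 7.77, against 8.96, 9.40 and 8.96 in wild-type cells (log2 difference -1.04, adjusted p = 0.0367). That call was lost in 14 of 26 alternatives (0.0168 to 0.241), among them the fit to only the arrays compared (0.0589). H2-Ob was at -0.93 there (adjusted p = 0.526) and at -0.67 among treated cells (adjusted p = 0.645). With untreated wild-type and knockout arrays paired by number, which the labels do not give as a pairing, the limma adjusted p of -0.93 was 0.0185. The widest differences of response were 0.42 for H2-Oa and 0.26 for H2-Ob. H2-Oa was the 1 call between untreated genotypes among the 8 class II genes and the 8 class I processing genes.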
